A study of Mus musculus with 12 samples.

Results

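The 46 genes described here carry out the G2/M transition, mitosis and cytokinesis. They were found by the gene name printed on the array probes, or by an alias (Cdk1 is printed as Cdc2a, Ndc80 as Kntc2, Nuf2 as Cdca1 and Spc25 as Spbc25), and the probe with the highest mean signal stood for each gene. All 46 were on the array, out of 20836 genes tested, and all 46 passed the filter on dim probes. By role, 11 act at mitotic entry, 9 in the spindle checkpoint and anaphase promotion, 9 at the centromere, kinetochore or passenger complex, 7 on the spindle, 6 in cytokinesis and 4 in chromosome structure or as a proliferation marker.

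Their mRNA was measured on one-colour arrays in MEFs, which are fibroblasts cultured from mouse embryos, here of E12.5. WT MEFs were compared with MEFs of the homozygous GR-C3 knockin, both on a C57Bl/6 background. In the knockin, Nr3c1, the gene of the glucocorticoid receptor (GR), keeps only the start codon of the short translational isoform GR-C3. The knockin goes back to 1 targeted ES cell clone and its hygromycin cassette was removed with a Flp-deleter cross. Each genotype was given either vehicle or the synthetic GR agonist dexamethasone (Dex) at 100 nM for 6 hours, which makes 4 groups of 3 arrays. Whether the replicates, called biological in the labels, were separate embryos or separate cultures is not given there, so p-values cover the spread between these samples and no more. A probe for Nr3c1 reads its transcript and not the start codon in use, so the array gives no check of the genotype labels.

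Cells enter mitosis when the cyclin B-Cdk1 kinase is switched on by Cdc25 phosphatases, with the kinases Plk1 and Aurka acting in the same loop. Chromosomes then attach to the spindle through the kinetochore, the checkpoint proteins hold back the ubiquitin ligase APC/C until all are attached, and Cdc20 turns the APC/C on for anaphase. Genes of this programme are transcribed late in the cycle: promoters with a CHR element are bound by MuvB complexes, which repress them with Rb family proteins in resting cells and activate them with B-Myb and Foxm1 in dividing cells, often together with NF-Y at nearby CCAAT boxes. The level of these mRNAs in a culture therefore depends on how many cells are in G2 and M. In bulk RNA, fewer cells in a phase and less RNA per cell cannot be told apart.

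RefSeq promoters (build GRCm38.p6) were at hand for 38 of the 46 genes, 41 promoters in all, each from 250 bases before to 50 bases after the start. The core of the CHR element, TTTGAA, was found on either strand in 27 of the 38 genes, and in 73.2% of their promoters against 17.9% of all 32851 promoters of the same length; in the 250 bases before the start alone it was in 39.0% of their promoters against 16% of all. CCAAT, the core of the NF-Y site, was found on either strand in 29 of the 38 genes, and in 78.0% of their promoters against 37.4% of all. Both stood in 24 of the 38 genes, or 65.9% of their promoters, against 6.95% of all. The palindrome of the glucocorticoid response element, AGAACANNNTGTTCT, was in none of the 38 and in 3 of all promoters (0.00913%). So rare a palindrome would hardly be met in 41 promoters, so its absence tells nothing about GR sites at these genes. The TTTGAA matches lay close to the start, 28 of 39 within 50 bases of it and 18 of 39 after it, while 67 of the 69 CCAAT matches lay before it. With 250 bases before the start and 50 after, the window has more room for matches before it. Bub3, Ect2 and Prc1 have overlapping promoters, so their shared matches were counted for each promoter. A match is a description of the letters and not of a bound site.

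These promoters are printed because they belong to genes that the results turn on: Cdk1 and Cdc20, higher in GR-C3 MEFs under both treatments, Ube2c, the gene called with Dex in WT on 11 arrays, and Nusap1, the gene called lower in GR-C3 MEFs, whose window held neither core. Each is the stretch of 250 bases before the start, 5′ to 3′ in the direction of transcription, with TTTGAA and CCAAT or their reverse complements in capitals. They lie at chr10:69352913-69353162, minus strand (Cdk1), chr4:118437344-118437593, minus strand (Cdc20), chr2:164769679-164769928, plus strand (Ube2c) and chr2:119618048-119618297, plus strand (Nusap1) in GRCm38.p6.
Cdk1: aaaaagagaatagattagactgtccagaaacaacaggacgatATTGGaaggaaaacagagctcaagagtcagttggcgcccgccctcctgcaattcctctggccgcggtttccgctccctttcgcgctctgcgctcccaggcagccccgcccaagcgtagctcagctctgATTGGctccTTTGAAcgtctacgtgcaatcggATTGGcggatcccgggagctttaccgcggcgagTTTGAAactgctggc
Cdc20: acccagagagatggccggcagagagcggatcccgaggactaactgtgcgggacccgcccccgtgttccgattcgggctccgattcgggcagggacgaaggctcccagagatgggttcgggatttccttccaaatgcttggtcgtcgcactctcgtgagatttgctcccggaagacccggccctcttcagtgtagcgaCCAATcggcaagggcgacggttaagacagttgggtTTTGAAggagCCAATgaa
Ube2c: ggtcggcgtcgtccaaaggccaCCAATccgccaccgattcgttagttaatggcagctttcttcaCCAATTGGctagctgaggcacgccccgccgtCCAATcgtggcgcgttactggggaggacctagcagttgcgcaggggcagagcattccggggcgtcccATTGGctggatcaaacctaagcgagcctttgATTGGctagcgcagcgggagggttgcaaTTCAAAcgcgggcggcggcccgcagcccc
Nusap1: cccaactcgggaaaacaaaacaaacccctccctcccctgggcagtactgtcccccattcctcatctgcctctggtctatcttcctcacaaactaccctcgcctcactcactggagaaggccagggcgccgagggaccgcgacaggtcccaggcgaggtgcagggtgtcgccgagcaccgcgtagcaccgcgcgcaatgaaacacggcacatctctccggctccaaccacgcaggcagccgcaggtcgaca

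In Cdk1 the matches to TTTGAA began 71 and 15 bases before the start, the first of them between CCAAT boxes at 80 and 48 bases. In Cdc20 the core began 18 bases before the start, between CCAAT matches at 53 and 8 bases. Ube2c held the core on the other strand at 29 bases, beside 6 CCAAT matches, of which those at 186 and 183 bases overlap on opposite strands. Of the genes described by array, Plk1, Aurka, Cenpa, Bub1b, Kif23, Kif4 and Anln held TTTGAA only after the start; in the first 3 it began 31, 33 and 17 bases into the transcript. Among the 11 genes without TTTGAA in the window were Ccnb1, Bub1, Cenpe, Birc5 and Nuf2, which were called higher in GR-C3 MEFs. Birc5 and Nuf2 held no CCAAT either, like Nusap1. Espl1, Kif11, Hmmr, Racgap1 and Smc2 were among the genes that held both cores and were not called in either genotype comparison. A link between motifs and direction was not tested.

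**Figure D1:**
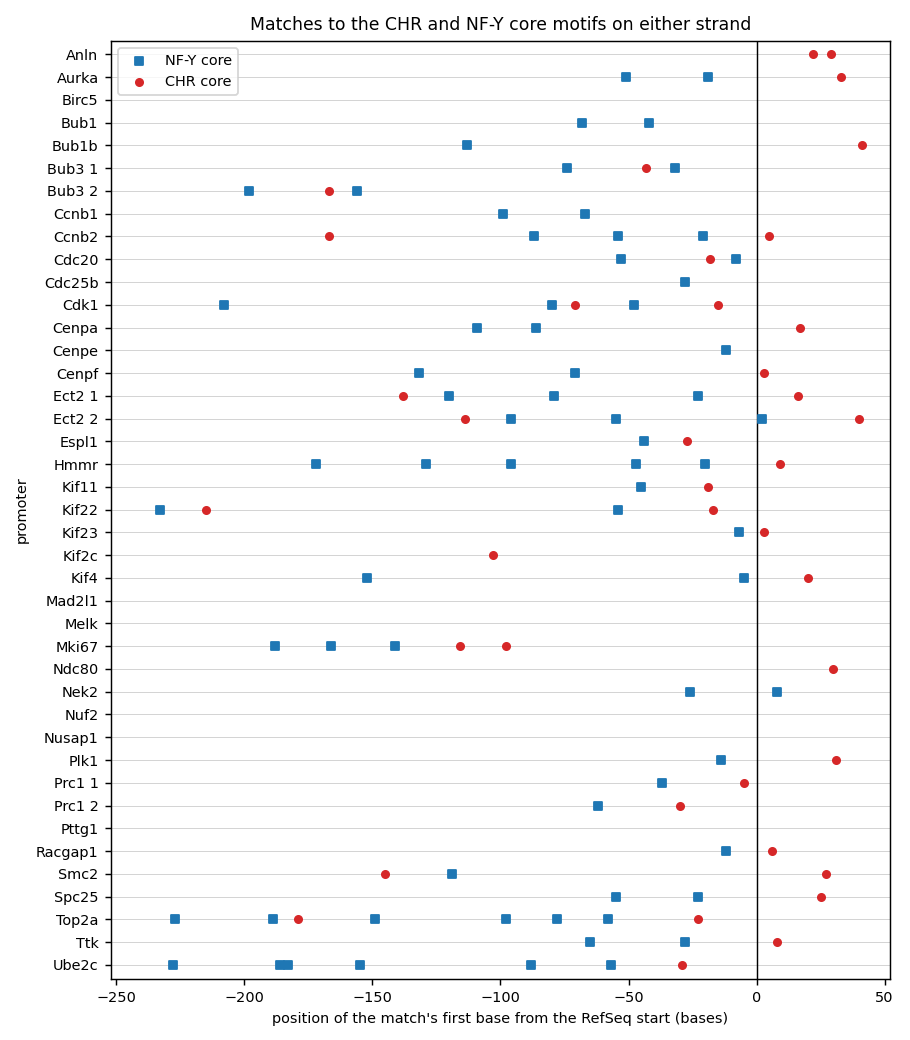
Positions of matches to the CHR core (red circles) and the NF-Y core (blue squares) in the 41 promoters of the 38 genes, in bases from the RefSeq start at 0. 28 of the 39 CHR core matches lie within 50 bases of the start and 67 of the 69 NF-Y core matches lie before it; numbers after a name mark several promoters of a gene.

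Of an array's probes, 71.3 to 79.0% passed the scanner software's test of well above background, as all 46 genes did on all 12 arrays, apart from 1 Prc1 spot left out for an outlier call on GR-C3 vehicle replicate 3. The number of arrays limits the precision. A level is the log2 signal minus the log2 of its array's 75th percentile, and differences are log2 differences ± SE. A gene was called at a limma adjusted p (Benjamini-Hochberg over all 20836 genes) under 0.05. WT vehicle replicate 1 was the single array of its slide and of its scan day, and correlated at 0.983 with its own group and at 0.987 to 0.989 with the WT Dex arrays, while other arrays of a group correlated at 0.991 or more. Results that rest on it are given with 12 arrays and with 11, without it.

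All 14 fibroblast markers were well above background on all 12 arrays, with a summed level (linear, in units of the array's 75th percentile) of 1156 to 1334 in WT vehicle, 1291 to 1612 in WT Dex, 1281 to 1538 in GR-C3 vehicle and 1379 to 1476 in GR-C3 Dex. The marker sums of other cell types did not overlap between the genotypes within a treatment. They are given here on the same scale, beside the genotype results. A linear sum is weighted to its brightest markers. Of 8 endothelial markers, 5 were well above background on all arrays, and Cdh5 and Tie1 on none. Their sum was 0.713 to 0.912 in WT vehicle, 0.732 to 0.879 in WT Dex, 2.05 to 2.26 in GR-C3 vehicle and 2.52 to 2.75 in GR-C3 Dex. Of 8 epithelial markers, 4 were above on all arrays, and Cdh1 and Esrp1 on none. Their sum was 1.02 to 1.07 in WT vehicle, 0.789 to 0.962 in WT Dex, 5.10 to 5.45 in GR-C3 vehicle and 3.96 to 4.12 in GR-C3 Dex. Of 8 neural and glial markers, 6 were above on all arrays. Their sum was 5.11 to 5.85 in WT vehicle, 5.47 to 6.71 in WT Dex, 12.1 to 13.2 in GR-C3 vehicle and 11.5 to 12.7 in GR-C3 Dex. Of 8 muscle markers, 7 were above on all arrays and Myf5 on none. Their sum was 37.7 to 45.3 in WT vehicle, 43.2 to 53.2 in WT Dex, 62.1 to 76.4 in GR-C3 vehicle and 69.9 to 79.2 in GR-C3 Dex. Of 10 blood cell markers, 7 were above on all arrays. Their sum was 7.02 to 8.62 in WT vehicle, 6.62 to 7.60 in WT Dex, 6.14 to 6.63 in GR-C3 vehicle and 5.17 to 5.65 in GR-C3 Dex. Each sum takes in every listed marker, dim ones too. Under vehicle (limma, 12 arrays), 2 of 5 endothelial markers tested were called higher (differences of -0.20 to 1.89). So were 3 of 4 epithelial (-0.36 to 2.77) and 4 of 6 neural and glial markers (0.21 to 2.15). For muscle it was 3 of 7 (-0.17 to 3.59). Of 8 blood cell markers 2 were called lower (-1.25 to 0.31), and of 14 fibroblast markers 2 higher and 2 lower. The called ones are 25% of the blood cell and 28.6% of the fibroblast markers, near the 24.8% of all genes called in either direction. The part of these cell types in the results below was not tested.

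**Figure D2:**
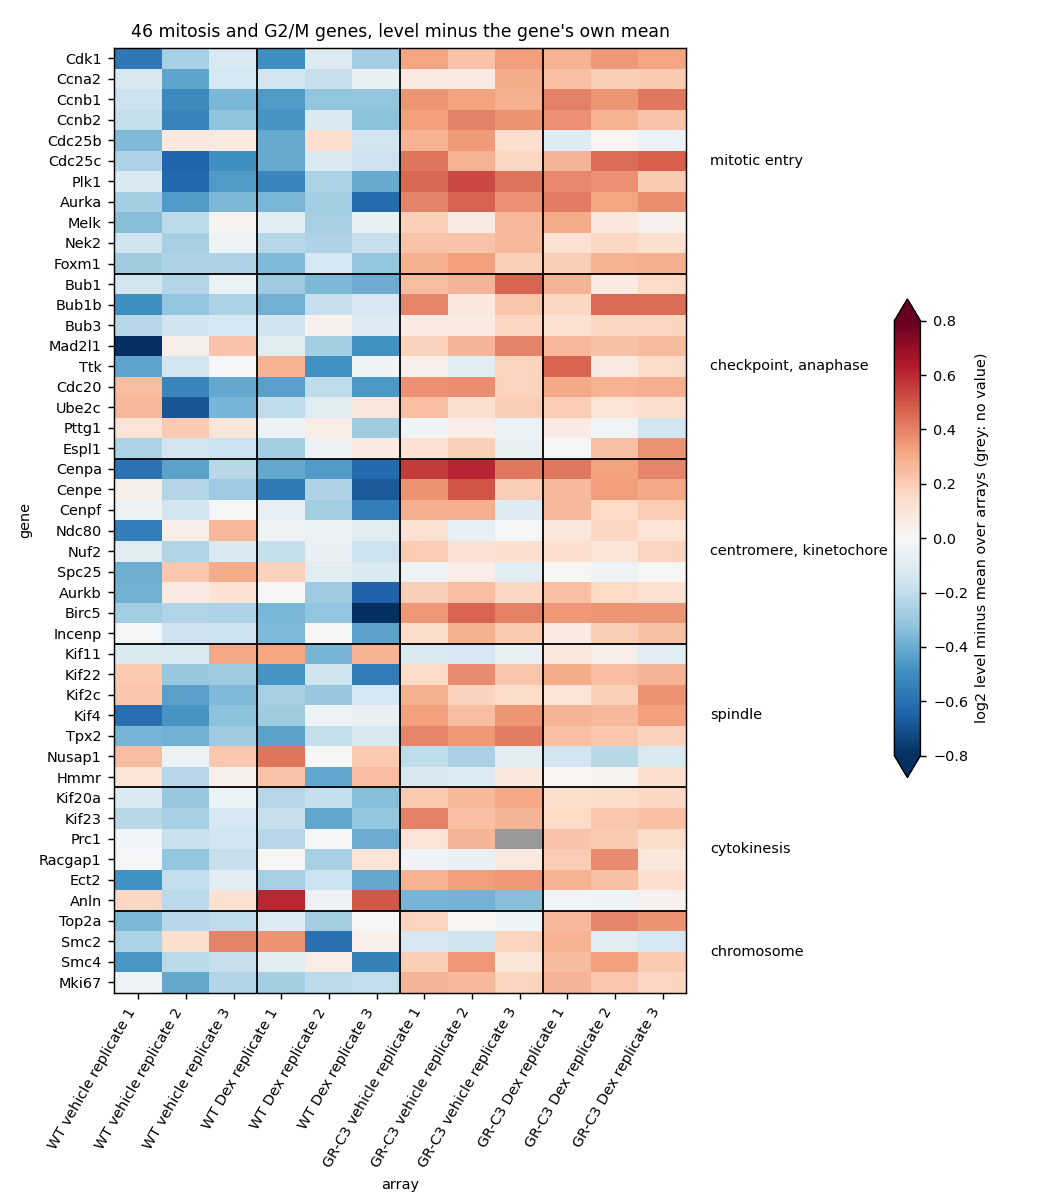
Each cell is the log2 level of 1 gene (46 genes, grouped by role) on 1 array (12 arrays, by group) minus the mean of that gene over the arrays; colours end at ± 0.8 and grey marks the Prc1 spot left out. 6 to 12 genes are above their own mean on each WT array and 36 to 42 on each GR-C3 array.

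Of the 46 genes, 24 were called higher in GR-C3 than in WT MEFs under vehicle and 28 under Dex (14.6% and 17.5% of all genes), with Plk1, Aurka, Ccnb1 and Cenpa among them in both, while Dex for 6 hours called 0 in either genotype with 12 arrays (0.12% of all genes in WT and 0.101% in GR-C3 MEFs). Centred on each gene's mean, the median of the 46 genes was -0.24 to -0.15 on the 6 WT arrays and 0.19 to 0.25 on the 6 GR-C3 arrays, so the genotypes did not overlap. Over all genes the same median ran from -0.14 to 0.10.

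Under vehicle, 24 of the 46 genes were called higher in GR-C3 MEFs and 0 lower (limma, 12 arrays), where 14.6% of all genes were called higher, 10.2% lower and 24.8% in either direction. The median difference was 0.40 over the 46 genes and 0.11 over all genes. In 30 of the 46 all GR-C3 arrays lay above all WT arrays, which 26.5% of all genes did, and in 3 (Pttg1, Nusap1 and Anln) all lay below (17% of all genes). With 11 arrays, 25 were called higher and 0 lower (16.2% of all genes higher, 11.1% lower and 27.3% in either direction), with a median of 0.42, and in 35 the groups did not overlap with GR-C3 above (40.1% of all genes). Leaving out WT vehicle replicate 2 as well brought the 25 to 13, and the share of all genes called higher to 7.42% (13.3% in either direction).

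Under Dex, 28 were called higher and 1, Nusap1, lower (17.5% of all genes higher, 12.1% lower and 29.6% in either direction). The median difference was 0.45, against 0.13 over all genes, and in 35 of the 46 all GR-C3 Dex arrays lay above all WT Dex arrays (32.1% of all genes), and in 1 all lay below (18.4%). With 11 arrays, where the WT Dex and GR-C3 Dex samples are the same and only the shared spread changes, 32 were higher and 1 lower (24.6% of all genes higher, 16.1% lower and 40.7% in either direction). The vehicle and Dex comparisons use different arrays, but share the estimate of the spread and the uneven slides described below. With 12 arrays, 23 genes were called higher in both, 95.8% of those called under vehicle and 82.1% of those called under Dex. The same overlap was not counted over all genes, so these shares are a description only. Bub3 was called under vehicle alone, and Cenpf, Incenp, Kif22, Prc1 and Top2a under Dex alone. With 11 arrays Ube2c was called under vehicle alone, and Bub3, Mad2l1, Cenpf, Aurkb, Incenp, Prc1, Top2a and Smc4 under Dex alone. For none of the 46 was the interaction of genotype and Dex called.

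The slides hold the genotypes unevenly. No slide held both genotypes under the same treatment, so within a slide the genotypes can be compared at different treatments only. With the slide as a fixed block, 6 genes were called higher under vehicle (Cenpa, Plk1, Aurka, Ccnb1, Cdc20 and Kif23; 3.62% of all genes higher and 7.82% in either direction) and 13 under Dex (7.66% and 15.6%). The median differences with this block were 0.43 and 0.39. With the slide as a random block 16 and 23 were called higher (9.26% and 12.1% of all genes). Neither block called any of the 46 lower, so the lower call of Nusap1 under Dex was lost. Slide 3 held 2 GR-C3 vehicle and 2 WT Dex arrays. There 16 genes were called higher and 0 lower (11.7% of all genes higher and 21.9% in either direction). The median was 0.45, against 0.0015 over all genes, and 42 of 46 were above 0. That within-slide comparison was chosen after seeing the data and differs in treatment as well as genotype. With the normexp background correction on the deposited local backgrounds, 2 of the 46 were called under vehicle and 6 under Dex (1.81% and 2.18% of all genes).

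**Figure D3:**
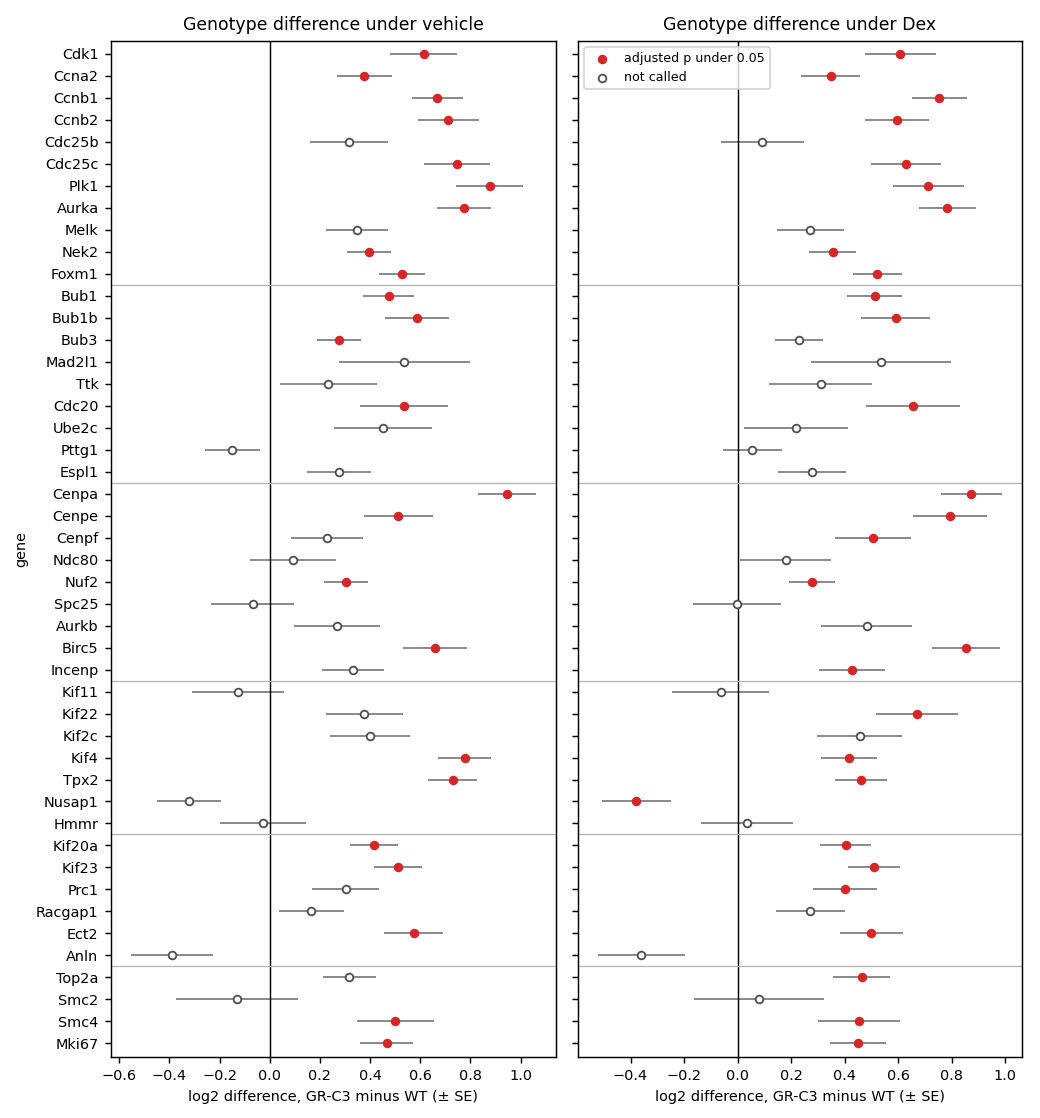
Log2 difference, GR-C3 minus WT (x axis, ± SE), of each of the 46 genes (y axis, by role) under vehicle and under Dex, from 12 arrays; red points were called by limma at an adjusted p under 0.05. 24 genes are red and above 0 under vehicle, 28 under Dex, where Nusap1 is the red point below 0.

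Of the 11 mitotic entry genes, 9 were called higher in GR-C3 MEFs under vehicle and 9 under Dex (14.6% and 17.5% of all genes). The medians were 0.61 and 0.59, and all 11 had a difference above 0 in both. The polo kinase Plk1 had levels of 2.87, 2.36 and 2.53 in WT MEFs with vehicle and 2.46, 2.73 and 2.58 with Dex, and of 3.45, 3.51 and 3.42 in GR-C3 MEFs with vehicle and 3.37, 3.35 and 3.20 with Dex. All 6 GR-C3 arrays were above all 6 WT arrays. The difference under vehicle was 0.88 ± 0.13, or 1.84-fold (limma adjusted p = 0.000867), and 1.02 ± 0.11 without WT vehicle replicate 1. Under Dex it was 0.71 ± 0.13 (limma adjusted p = 0.00277). The Plk1 probe lies at chr7:118093971-118094030 in mm7, the build of the array files; no gene annotation of that build was used here.

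Aurka, the centrosome and spindle kinase, had levels of 2.98, 2.80 and 2.89 in WT MEFs with vehicle and 2.88, 2.98 and 2.63 with Dex, and of 3.65, 3.72 and 3.61 in GR-C3 MEFs with vehicle and 3.66, 3.56 and 3.62 with Dex. The genotypes did not overlap, and the differences were 0.77 ± 0.11 under vehicle and 0.78 ± 0.11 under Dex (limma adjusted p = 0.000473 and 0.000411). Ccnb1, the cyclin B1 that activates Cdk1, had levels of 0.40, 0.069 and 0.21 in WT MEFs with vehicle and 0.13, 0.26 and 0.26 with Dex, and of 0.93, 0.90 and 0.86 in GR-C3 MEFs with vehicle and 0.98, 0.93 and 1.0 with Dex. Again all GR-C3 arrays were above all WT arrays, by 0.67 ± 0.10 and 0.75 ± 0.10 (limma adjusted p = 0.000923 and 0.000391). Cdc25c, a phosphatase that removes the inhibitory phosphates of Cdk1, had levels of -2.22, -2.61 and -2.47 in WT MEFs with vehicle and -2.38, -2.10 and -2.15 with Dex, and of -1.55, -1.70 and -1.82 in GR-C3 MEFs with vehicle and -1.71, -1.53 and -1.5 with Dex. Its GR-C3 arrays were above its WT arrays, by 0.75 ± 0.13 and 0.63 ± 0.13 (limma adjusted p = 0.00217 and 0.0052). The Cdc25c probe lies at chr18:35119875-35120741 in mm7, on the chromosome of Nr3c1. A part of DNA flanking the targeted gene in this difference was not tested.

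Cdk1 itself, the mitotic kinase, had levels of 1.73, 2.04 and 2.18 in WT MEFs with vehicle and 1.81, 2.20 and 2.02 with Dex, and of 2.62, 2.53 and 2.64 in GR-C3 MEFs with vehicle and 2.58, 2.65 and 2.62 with Dex. Its GR-C3 arrays lay above every WT array, with differences of 0.61 ± 0.13 and 0.61 ± 0.13 (limma adjusted p = 0.00695 and 0.00649). The other members called in both comparisons were Ccnb2 (0.71 and 0.59), Foxm1, the transcription factor of late cell cycle genes (0.53 and 0.52), the centrosome kinase Nek2 (0.39 and 0.36) and Ccna2, cyclin A2 (0.38 and 0.35). The kinase Melk (0.35 and 0.27) and the phosphatase Cdc25b (0.31 and 0.093) were not called in either, and with 11 arrays the first Cdc25b value was 0.17.

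Of the 9 genes of the checkpoint and anaphase, 4 were called higher under vehicle and 3 under Dex (14.6% and 17.5% of all genes). The medians were 0.45 and 0.31. Cdc20, the activator of the APC/C in mitosis, had levels of 4.34, 3.57 and 3.68 in WT MEFs with vehicle and 3.66, 3.89 and 3.63 with Dex, and of 4.45, 4.46 and 4.27 in GR-C3 MEFs with vehicle and 4.39, 4.37 and 4.38 with Dex. WT vehicle replicate 1 lay within the range of the GR-C3 arrays, and the other 5 WT arrays lay below it. The difference under vehicle was 0.53 ± 0.18 with 12 arrays and 0.77 ± 0.11 with 11 (limma adjusted p = 0.0475 and 0.000646), and under Dex 0.66 ± 0.18 (limma adjusted p = 0.0178). Ube2c, the ubiquitin-conjugating enzyme of the APC/C, had levels of 2.23, 1.28 and 1.60 in WT MEFs with vehicle and 1.76, 1.87 and 2.06 with Dex, and of 2.20, 2.10 and 2.16 in GR-C3 MEFs with vehicle and 2.17, 2.07 and 2.10 with Dex. Its level on WT vehicle replicate 1 was above every GR-C3 array and the other WT vehicle arrays were the lowest of all. Its difference under vehicle was 0.45 ± 0.19 with 12 arrays, not called (limma adjusted p = 0.118), and 0.71 ± 0.12 with 11, called (limma adjusted p = 0.00198). Under Dex its difference was 0.22, not called with 12 arrays or 11 (limma adjusted p = 0.415 and 0.128).

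The checkpoint kinase Bub1 had levels of -0.10, -0.19 and -0.0032 in WT MEFs with vehicle and -0.24, -0.31 and -0.34 with Dex, and of 0.29, 0.32 and 0.52 in GR-C3 MEFs with vehicle and 0.32, 0.12 and 0.21 with Dex. All GR-C3 arrays were above all WT arrays, by 0.47 ± 0.10 under vehicle and 0.51 ± 0.10 under Dex (limma adjusted p = 0.00679 and 0.00402). Bub1b, the checkpoint protein BubR1 that inhibits Cdc20, had levels of -0.35, -0.17 and -0.11 in WT MEFs with vehicle and -0.24, -0.04 and 0.01 with Dex, and of 0.54, 0.23 and 0.36 in GR-C3 MEFs with vehicle and 0.31, 0.60 and 0.59 with Dex. The genotypes did not overlap, and the differences were 0.59 ± 0.13 and 0.59 ± 0.13 (limma adjusted p = 0.00734 and 0.00628). Bub3, their partner, was called under vehicle with 12 arrays (0.28 ± 0.089, limma adjusted p = 0.0441) and not with 11 (0.0599). Under Dex it was 0.23, called with 11 arrays and not with 12 (limma adjusted p = 0.0418 and 0.0743). The securin Pttg1 (-0.15 and 0.056), the separase Espl1 (0.28 and 0.28), the checkpoint kinase Ttk (0.23 and 0.31) and Mad2l1 (0.54 and 0.54) were not called with 12 arrays. Without WT vehicle replicate 1 the vehicle difference was 0.15 for Mad2l1 and 0.12 for Ttk, neither called. For Mad2l1, the checkpoint protein Mad2, WT vehicle replicate 1 stood at -0.077 and the other WT arrays at 0.47 to 1.17. Without it the Mad2l1 difference under Dex was called (limma adjusted p = 0.00401), through the smaller shared spread.

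Of the 9 centromere and kinetochore genes, 4 were called higher under vehicle and 6 under Dex (14.6% and 17.5% of all genes). The medians were 0.30 and 0.48. Cenpa, the histone H3 variant of the centromere, had levels of 0.33, 0.50 and 0.70 in WT MEFs with vehicle and 0.51, 0.47 and 0.30 with Dex, and of 1.48, 1.53 and 1.34 in GR-C3 MEFs with vehicle and 1.34, 1.24 and 1.31 with Dex. The genotypes were far apart, and the vehicle difference of 0.95 ± 0.11, 1.93-fold, was the largest of the 46 genes with 12 arrays (limma adjusted p = 0.000187). Under Dex it was 0.87 ± 0.11 (limma adjusted p = 0.000306). Birc5, the survivin subunit of the passenger complex, had levels of 3.99, 4.03 and 4.02 in WT MEFs with vehicle and 3.90, 3.95 and 3.44 with Dex, and of 4.61, 4.73 and 4.67 in GR-C3 MEFs with vehicle and 4.61, 4.62 and 4.62 with Dex. WT Dex replicate 3 was the lowest array, and all GR-C3 arrays lay above all WT arrays, by 0.66 ± 0.13 and 0.85 ± 0.13 (limma adjusted p = 0.00362 and 0.000685).

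Cenpe, the kinetochore motor that brings chromosomes to the spindle equator, had levels of 3.15, 2.87 and 2.81 in WT MEFs with vehicle and 2.54, 2.86 and 2.43 with Dex, and of 3.46, 3.61 and 3.30 in GR-C3 MEFs with vehicle and 3.36, 3.44 and 3.41 with Dex. Its genotypes did not overlap, with differences of 0.51 ± 0.14 and 0.80 ± 0.14 (limma adjusted p = 0.0209 and 0.0018). Nuf2, a subunit of the microtubule-binding Ndc80 complex, had levels of 1.26, 1.12 and 1.25 in WT MEFs with vehicle and 1.17, 1.30 and 1.19 with Dex, and of 1.56, 1.48 and 1.5 in GR-C3 MEFs with vehicle and 1.5, 1.47 and 1.54 with Dex. Its GR-C3 arrays were narrowly above its WT arrays, by 0.30 ± 0.088 and 0.28 ± 0.088 (limma adjusted p = 0.0282 and 0.0354). The other Ndc80 complex subunits on the list, Ndc80 (0.092 and 0.18) and Spc25 (-0.068 and -0.0016), were not called. Without WT vehicle replicate 1 their vehicle differences were -0.14, with the sign turned, and -0.28, neither called. The passenger complex scaffold Incenp was called under Dex (0.43 ± 0.12, limma adjusted p = 0.0242). Its kinase Aurkb was called under Dex with 11 arrays and not with 12 (0.48 ± 0.17, limma adjusted p = 0.0215 and 0.0541). The Aurkb vehicle difference, not called, was 0.27 with 12 arrays and 0.11 with 11.

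**Figure D4:**
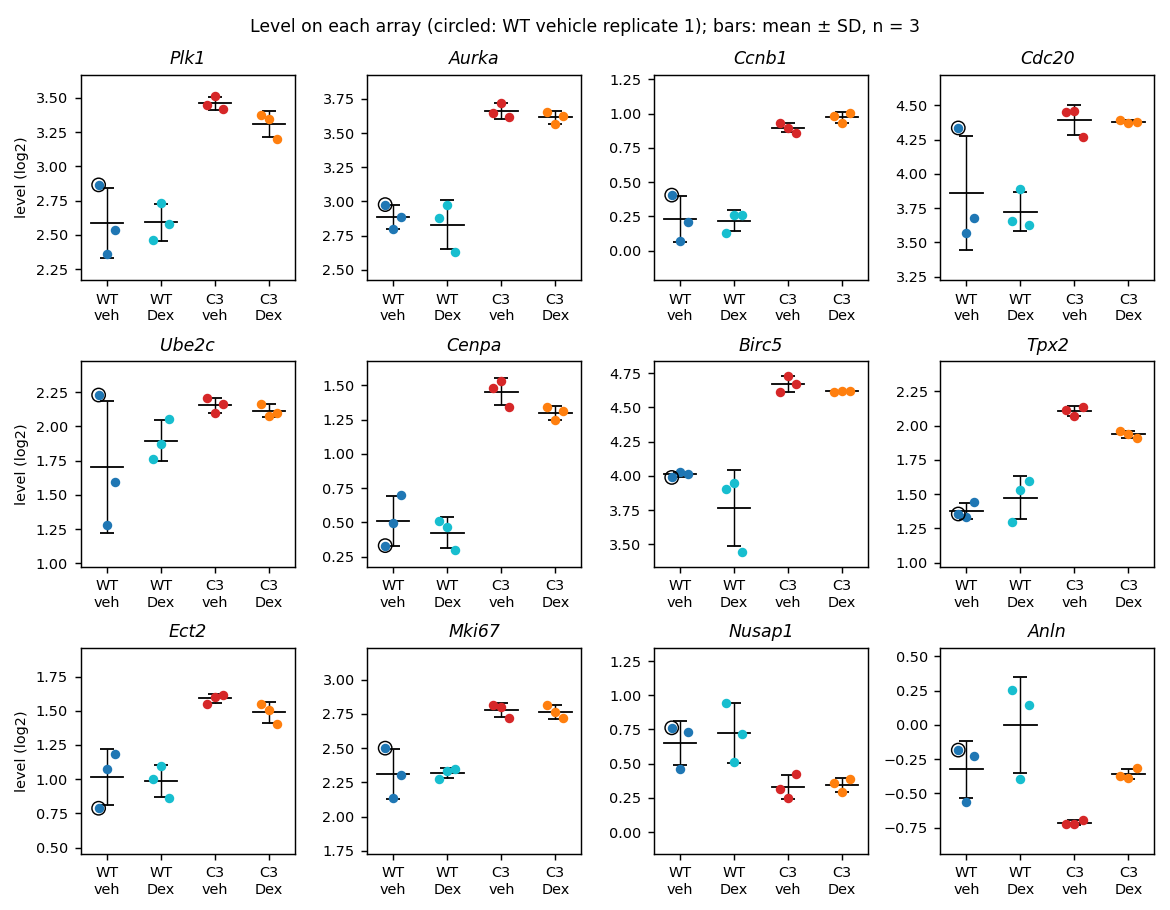
Log2 level (relative to the array's 75th percentile) of 12 genes on each array, by group, with mean ± SD of n = 3; WT vehicle replicate 1 is circled and WT and GR-C3 arrays are in blue and in red and orange. For Plk1, Aurka, Ccnb1, Cenpa, Birc5, Tpx2, Ect2 and Mki67 all GR-C3 points lie above all WT points, while Nusap1 lies lower in GR-C3 and the Anln groups overlap under Dex.

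Of the 7 spindle genes, 2 were called higher under vehicle and 3 under Dex (14.6% and 17.5% of all genes). Those under vehicle are 28.6% of the group, where 24.8% of all genes were called in either direction. The medians were 0.38 and 0.42. Tpx2, which activates Aurka on spindle microtubules, had levels of 1.35, 1.34 and 1.44 in WT MEFs with vehicle and 1.30, 1.53 and 1.59 with Dex, and of 2.12, 2.07 and 2.13 in GR-C3 MEFs with vehicle and 1.96, 1.94 and 1.91 with Dex. The genotypes did not overlap, and the differences were 0.73 ± 0.10 and 0.46 ± 0.10 (limma adjusted p = 0.000376 and 0.00558). Kif4, a chromosome-bound kinesin, had levels of 0.15, 0.28 and 0.43 in WT MEFs with vehicle and 0.47, 0.72 and 0.70 with Dex, and of 1.09, 1.0 and 1.11 in GR-C3 MEFs with vehicle and 1.03, 1.02 and 1.09 with Dex. Its WT Dex arrays lay between the WT vehicle and the GR-C3 arrays. The genotype differences were 0.78 ± 0.11 and 0.42 ± 0.11 (limma adjusted p = 0.000403 and 0.0135).

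The chromosome-bound kinesin Kif22 had levels of 2.85, 2.33 and 2.36 in WT MEFs with vehicle and 2.17, 2.48 and 2.08 with Dex, and of 2.79, 3.02 and 2.86 in GR-C3 MEFs with vehicle and 2.94, 2.89 and 2.91 with Dex. WT vehicle replicate 1 overlapped GR-C3 vehicle, and the difference under vehicle was called with 11 arrays (0.54 ± 0.12, limma adjusted p = 0.00961) and not with 12 (0.38 ± 0.15, 0.097). Under Dex it was 0.67 ± 0.15 (limma adjusted p = 0.00804). The microtubule-depolymerising kinesin Kif2c had levels of -1.30, -1.95 and -1.87 in WT MEFs with vehicle and -1.78, -1.82 and -1.66 with Dex, and of -1.23, -1.33 and -1.36 in GR-C3 MEFs with vehicle and -1.41, -1.32 and -1.16 with Dex. It too was called with 11 arrays alone, under vehicle (0.61 ± 0.10, limma adjusted p = 0.00215) and under Dex (0.46 ± 0.092, limma adjusted p = 0.00365). The spindle motor Kif11 (-0.13 and -0.064) and the microtubule-binding Hmmr (-0.028 and 0.035) were not called, and with 11 arrays their vehicle differences were -0.20 and 0.04. A second Kif11 probe, above background on 10 arrays, had the other sign, with 0.73 under vehicle (0.48 with 11 arrays) and 0.17 under Dex.

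Nusap1, a protein that bundles spindle microtubules near chromosomes, went the other way, with levels of 0.76, 0.46 and 0.73 in WT MEFs with vehicle and 0.94, 0.51 and 0.72 with Dex, and of 0.31, 0.25 and 0.43 in GR-C3 MEFs with vehicle and 0.36, 0.29 and 0.39 with Dex. All 6 GR-C3 arrays were below all 6 WT arrays. The difference was -0.38 ± 0.13 under Dex, called lower (limma adjusted p = 0.046), and -0.32 ± 0.13 under vehicle, not called (limma adjusted p = 0.0921). With the slide as a fixed or random block Nusap1 was called in neither comparison.

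Of the 6 cytokinesis genes, 3 were called higher under vehicle and 4 under Dex (14.6% and 17.5% of all genes). The medians were 0.36 and 0.40. Ect2, the exchange factor that activates RhoA at the division plane, had levels of 0.79, 1.08 and 1.19 in WT MEFs with vehicle and 1.0, 1.10 and 0.86 with Dex, and of 1.55, 1.60 and 1.62 in GR-C3 MEFs with vehicle and 1.55, 1.51 and 1.40 with Dex. The genotypes did not overlap on this probe, with differences of 0.57 ± 0.12 and 0.50 ± 0.12 (limma adjusted p = 0.0051 and 0.00939), but a second Ect2 probe gave -0.71 and -0.07. Kif23, the motor of the centralspindlin complex, had levels of 0.20, 0.16 and 0.29 in WT MEFs with vehicle and 0.24, 0.0085 and 0.11 with Dex, and of 0.83, 0.66 and 0.69 in GR-C3 MEFs with vehicle and 0.58, 0.64 and 0.66 with Dex. Its GR-C3 arrays were above its WT arrays by 0.51 ± 0.10 and 0.51 ± 0.10 (limma adjusted p = 0.00326 and 0.00293).

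Kif20a, a kinesin of the spindle midzone, had levels of 3.82, 3.64 and 3.88 in WT MEFs with vehicle and 3.71, 3.75 and 3.60 with Dex, and of 4.15, 4.2 and 4.25 in GR-C3 MEFs with vehicle and 4.08, 4.09 and 4.11 with Dex. All its GR-C3 arrays lay above its WT arrays, and the differences were 0.41 ± 0.10 and 0.40 ± 0.10 (limma adjusted p = 0.00959 and 0.00977). The Kif20a probe lies at chr18:35008089-35008148 in mm7, like that of Cdc25c on the chromosome of Nr3c1. A part of DNA flanking Nr3c1 was not tested here either. Prc1, which cross-links midzone microtubules, had levels of 3.34, 3.18 and 3.21 in WT MEFs with vehicle and 3.13, 3.37 and 2.96 with Dex, and of 3.46 and 3.63 in GR-C3 MEFs with vehicle and 3.59, 3.57 and 3.51 with Dex. It had 11 values, with no overlap between the genotypes, and was called under Dex (0.40 ± 0.12, limma adjusted p = 0.031) and not under vehicle (0.30 ± 0.13, 0.128). Racgap1, the partner of Kif23, was not called (0.17 and 0.27). Anln, anillin of the contractile ring, had levels of -0.18, -0.56 and -0.23 in WT MEFs with vehicle and 0.25, -0.40 and 0.15 with Dex, and of -0.72, -0.73 and -0.69 in GR-C3 MEFs with vehicle and -0.37, -0.39 and -0.32 with Dex. Its GR-C3 vehicle arrays lay below all WT arrays and its GR-C3 Dex arrays within the WT range. The differences were below 0 in both comparisons (-0.39 ± 0.16 and -0.36 ± 0.16), neither called (limma adjusted p = 0.108 and 0.116); its second probe gave 0.055 and 0.31.

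Of the 4 chromosome and proliferation genes, 2 were called higher under vehicle and 3 under Dex (14.6% and 17.5% of all genes). Mki67, which codes for the Ki-67 protein of cycling cells, had levels of 2.5, 2.13 and 2.30 in WT MEFs with vehicle and 2.27, 2.33 and 2.35 with Dex, and of 2.81, 2.80 and 2.72 in GR-C3 MEFs with vehicle and 2.82, 2.76 and 2.72 with Dex. All GR-C3 arrays lay above all WT arrays, by 0.47 ± 0.10 and 0.45 ± 0.10 (limma adjusted p = 0.00842 and 0.0091). Top2a, the topoisomerase that untangles sister chromatids, had levels of -0.17, -0.042 and -0.012 in WT MEFs with vehicle and 0.076, -0.087 and 0.19 with Dex, and of 0.36, 0.21 and 0.16 in GR-C3 MEFs with vehicle and 0.45, 0.58 and 0.55 with Dex. Its genotypes did not overlap within a treatment, and it was called under Dex (0.46 ± 0.11, limma adjusted p = 0.00823) and not under vehicle (0.32 ± 0.11, 0.0508). Smc4, a core subunit of condensin, had levels of 2.62, 2.88 and 2.91 in WT MEFs with vehicle and 3.01, 3.15 and 2.55 with Dex, and of 3.29, 3.44 and 3.19 in GR-C3 MEFs with vehicle and 3.35, 3.42 and 3.30 with Dex. Its differences of 0.50 ± 0.15 and 0.45 ± 0.15 were called with 12 arrays (limma adjusted p = 0.0348 and 0.0452), but the first was not with 11 (0.0822). A second Smc4 probe gave 0.24 and 0.18, and -0.075 under vehicle with 11 arrays. Smc2, its condensin partner, was not called (-0.13 and 0.079, and -0.30 under vehicle with 11 arrays), and its 3 other probes gave 0.48, -0.70 and 0.13 under vehicle.

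Several probes allow a check for some of the genes: 25 of the 46 had 1 kept probe and 21 had several. The 24 further probes that were above background on all arrays, of 19 genes, had the sign of the probe used in 20 cases under vehicle and 20 under Dex. Under vehicle without WT vehicle replicate 1 it was 18.

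Dex for 6 hours called 0 of the 46 genes in WT MEFs with 12 arrays (limma; 2 at an unadjusted p under 0.05), where 0.12% of all genes were called and 16.7% had such an unadjusted p. The differences of the 46 ran from -0.34 to 0.34 with a median of -0.00027, 23 above 0 and 23 below. No 95% confidence interval of the 46 reached beyond -0.69 or 0.68. Without WT vehicle replicate 1, 12.2% of all genes were called and 1 of the 46, Ube2c, was higher (5.38% of all genes were; 7 at an unadjusted p under 0.05, 27.3% of all genes), with a median of -0.014.

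Ube2c was 0.46 ± 0.12 higher with Dex on those 11 arrays (limma adjusted p = 0.0354) and 0.19 ± 0.19 with all 12 (0.65). Its WT Dex levels of 1.76, 1.87 and 2.06 lay above WT vehicle replicates 2 and 3 and below replicate 1. Kif4 was higher on all 3 WT Dex arrays than on all 3 WT vehicle arrays, by 0.34 ± 0.11, and was not called (limma adjusted p = 0.175); such a gap upward occurred in 1 of the 46 and 6% of all genes. A gap downward occurred in 3 of the 46 (9.01% of all genes): Pttg1, Bub1 and Birc5. Bub1 and Birc5 were lower on all WT Dex arrays, with differences of -0.20 ± 0.10 and -0.25 ± 0.13, and were not called (0.346 and 0.35). Within slide 2, which held 2 WT vehicle arrays and 1 WT Dex array, 0 of the 46 were called (5.71% of all genes), with a median of -0.013. The call of Ube2c rested on single arrays: without WT Dex replicate 1 as well, 6 of the 46 were called, 3 higher and 3 lower (21.3% of all genes), while without WT vehicle replicate 2, WT Dex replicate 3, any GR-C3 vehicle array or GR-C3 Dex replicate 2 or 3 as well, 0 were (4.62 to 11.4% of all genes). Those 6, chosen after their values were seen, were Ube2c (0.52), Cdc25c (0.42) and Kif4 (0.35) higher, and Aurkb (-0.56), Mad2l1 (-0.51) and Spc25 (-0.36) lower. With WT vehicle replicate 1 left out and the slide as a fixed or random block, 0 were called.

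In GR-C3 MEFs Dex called 0 of the 46 (limma; 1 at an unadjusted p under 0.05), where 0.101% of all genes were called and 11.8% had such an unadjusted p. The differences ran from -0.30 to 0.36 with a median of -0.012, and all 95% confidence intervals lay between -0.64 and 0.71. With 11 arrays it was again 0 (3 at an unadjusted p under 0.05, 18.2% of all genes), where 3.47% of all genes were called. The differences at the ends of the range were Cdc25b (-0.30 ± 0.16) and Anln (0.36 ± 0.16). Anln was the 1 gene called when the GR-C3 arrays were fitted alone, where 3.32% of all genes were. In 6 of the 46, Plk1, Tpx2 and Cenpa among them, all GR-C3 Dex arrays lay below all GR-C3 vehicle arrays (17.9% of all genes), with differences of -0.16 ± 0.13, -0.17 ± 0.10 and -0.15 ± 0.11, none called. In 3, Racgap1, Anln and Top2a, they lay above (11.1%). Within slide 4, with 1 GR-C3 vehicle and 3 GR-C3 Dex arrays, 0 were called (0.0048% of all genes), with a median of 0.00053.

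The difference between the Dex responses of the genotypes was tested as the interaction, GR-C3 change minus WT change. It was called for 0 of the 46 and 0% of all genes with 12 arrays (limma; 1 of the 46 and 6.15% of all genes at an unadjusted p under 0.05), and for 0 of the 46 and 1.14% of all genes with 11 (3 and 14.3%). The 46 interaction values with 12 arrays ran from -0.36 (Kif4) to 0.29 (Kif22). For Ube2c the interaction on 11 arrays was -0.50 ± 0.16 (limma adjusted p = 0.198), so the responses were not shown to differ. The comparisons of Dex in WT and of genotype under vehicle share the WT vehicle arrays, and those of Dex in WT and of genotype under Dex share the WT Dex arrays.

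**Figure D5:**
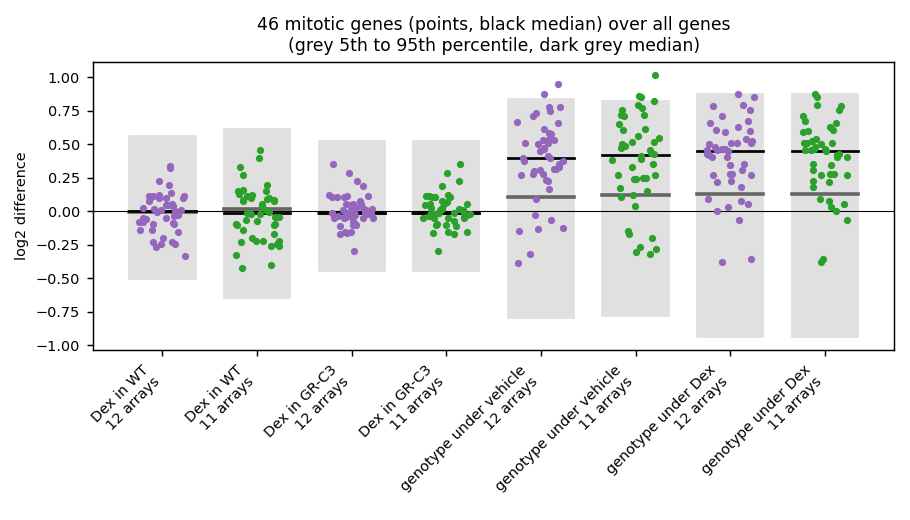
Log2 differences of the 46 genes (points; black bar, their median) in 4 comparisons with 12 arrays (purple) and without WT vehicle replicate 1 (green), over the 5th to 95th percentile (grey box) and median (dark bar) of all 20836 genes. The medians of the 46 lie near 0 with Dex in both genotypes and at 0.40 to 0.45 in the genotype comparisons, against 0.11 to 0.13 over all genes.

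Of 62 other mitotic genes measured, 19 were called higher and 1 lower under vehicle (medians 0.32 for the list and 0.11 over all genes), and 24 higher and 0 lower under Dex. The higher ones are 30.6% and 38.7% of the list, against 14.6% and 17.5% of all genes. Those with the smallest p on 12 arrays were Trip13, an ATPase that takes apart checkpoint complexes (0.89 ± 0.10 under vehicle and 0.95 ± 0.10 under Dex), Lmnb1, lamin B1 (0.84 ± 0.10 and 0.98 ± 0.10), and the spindle protein Tacc3 (0.72 ± 0.086 and 0.74 ± 0.086). The 1 lower gene was Mis12, a kinetochore protein (-0.48 ± 0.13), named after its value was seen. With 11 arrays the counts were 18 and 1 under vehicle and 30 and 0 under Dex (16.2% and 24.6% of all genes higher), and 4 of the 62 were lower with Dex in WT, among them Ccdc34, Kif18a and Cenpk (-0.50 ± 0.11, -0.66 ± 0.16 and -0.34 ± 0.09; 6.85% of all genes lower).

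Of the 18 APC/C subunits and regulators, 4 were called higher and 0 lower under vehicle, and 5 higher and 1 lower under Dex. These are 22.2% and 33.3% of the list, near the 24.8% and 29.6% of all genes called. Ube2s, the enzyme that extends ubiquitin chains on APC/C targets, and the subunit Cdc26 were higher in both (0.53 ± 0.13 and 0.50 ± 0.13, 0.41 ± 0.12 and 0.60 ± 0.12), as was the subunit Anapc1 (0.47 ± 0.15 and 0.60 ± 0.15), and Fzr1, which replaces Cdc20 after anaphase, under vehicle (0.36 ± 0.11). The lower gene was the subunit Anapc16 (-0.62 ± 0.091, limma adjusted p = 0.000652). With 11 arrays 4 were called under vehicle and 8 higher and 1 lower under Dex (27.3% and 40.7% of all genes), and Anapc10 was lower with Dex in WT (-0.45 ± 0.12).

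Of 22 transcription factors and repressors of these promoters, 4 were called higher and 5 lower under vehicle, and 6 higher and 4 lower under Dex. The higher ones are 18.2% and 27.3% of the list, against 14.6% and 17.5% of all genes, and all called ones 40.9% and 45.5%, against 24.8% and 29.6%. Mybl2, the B-Myb activator, was higher under vehicle and under Dex (0.80 ± 0.13 and 0.62 ± 0.13; limma adjusted p = 0.00158 and 0.0063). Rbl2, the p130 repressor of resting cells, was lower (-1.05 ± 0.19 and -1.06 ± 0.19; limma adjusted p = 0.00272 and 0.00239), as were E2f6, a repressor of the E2F family (-0.65 ± 0.12 and -0.41 ± 0.12), and the MuvB subunit Lin52 (-0.87 ± 0.18 and -1.06 ± 0.18). E2f4, an E2F that binds with pocket proteins, was higher (0.44 ± 0.11 and 0.60 ± 0.11). With 11 arrays Dex in WT called 1 of the 22 higher, Lin52 (0.56 ± 0.084), and 3 lower, E2f2 (-0.49 ± 0.092) and Lin9 (-0.65 ± 0.16) among them (12.2% of all genes in either direction). Dex in GR-C3 called E2f6 higher (0.51 ± 0.10, 3.47% of all genes in either direction). With 12 arrays 0 were called in either (limma; 4 and 2 at an unadjusted p under 0.05).

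Of 11 genes that hold back the G2/M transition, 0 were called under vehicle with 12 arrays (2 at an unadjusted p under 0.05) and 1 under Dex, Chek1, a checkpoint kinase (0.63 ± 0.15, limma adjusted p = 0.00999), where 24.8% and 29.6% of all genes were called. With 11 arrays, 1 was higher and 1 lower under vehicle, Gadd45g (0.42 ± 0.13) and Gadd45a (-0.50 ± 0.15). Under Dex 3 were higher, Gadd45a (0.55 ± 0.13) among them, and 3 lower, Cdkn1a (-0.48 ± 0.11) among them (27.3% and 40.7% of all genes in the 2 comparisons). With Dex in WT MEFs, 3 were called higher and 2 lower with 11 arrays (12.2% of all genes in either direction) and 0 with 12 (limma; 4 at an unadjusted p under 0.05). The differences of the list ran from -1.43 to 1.39 with 11 arrays and from -1.05 to 1.13 with 12. On the 11 arrays Gadd45a, a stress-induced inhibitor of Cdk1, was lower with Dex (-1.43 ± 0.15, limma adjusted p = 0.000182), and Wee1, the kinase that inhibits Cdk1, and Gadd45g were higher (1.39 ± 0.20 and 0.81 ± 0.13, limma adjusted p = 0.00152 and 0.00282). In GR-C3 MEFs on the same 11 arrays Wee1 was higher too (1.16 ± 0.18, limma adjusted p = 0.00654), and the interaction was called for Gadd45a (1.05 ± 0.20, limma adjusted p = 0.0366).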

How the data were processed

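Cy3-labelled RNA of 12 MEF samples was measured on Agilent arrays, 1 sample each and 3 per group; groups and replicate numbers come from the labels. The deposited scanner files hold linear spot intensity, background-subtracted by the authors with Feature Extraction (9.5.3.1 per the file headers, 9.5 per the submitters' processing notes). The deposited series value table holds the same intensity for all 45018 spots within 1e-09. Probe positions are in mm7 per the file headers.

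From these, log2 processed signal minus the array's 75th percentile (884 to 1821) was computed. The 1639 control spots and outlier calls were left out, spots of a probe averaged, and a probe kept if 1 or more groups had it well above background on every array (30934 of 41174). The kept probe with the highest mean stood for a gene, which gave 20836 genes. The fit used limma 3.58.1 (R 4.3.3) over all 12 arrays, and without WT vehicle replicate 1, with Benjamini-Hochberg adjustment over all genes. Permutation of 3 arrays against 3 cannot give p below 0.1. On simulated arrays, for Dex in WT over 20836 genes, 64% of 2-fold and 93% of 4-fold changes were called.

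The members, gene lists, tests and alternatives were chosen with earlier results of these data known. Given by array are, per role, at most 4 members, those of smallest p in any comparison without WT vehicle replicate 1 among the called. Cdk1, Nusap1 and Anln were added outside this rule, after seeing the values. Of each other list up to 3 called genes of smallest p are named per comparison, with 12 arrays for the genotype and 11 for Dex; other genes called with 11 arrays, and those said to be, were named after seeing the values; 1 cell type marker is not reported by name here. Same-numbered samples did not pair (18 correlations of deviations, -0.22 to 0.21, 4 above 0.1). Alternatives were quantile normalization, normexp (offset 50, as deposited or with local backgrounds over 10 times the median or with an outlier call replaced), no filter, detection on all 12 arrays, mean over probes, the value table, slide and replicate blocks, arrays of 1 genotype or slide alone, and each array left out.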

Additional observations from a re-analysis of the deposited data

How the results depend on the processing

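The medians of the 46 genes in both genotype comparisons stayed above 0 under every alternative run. Against 24 genes called under vehicle and 29 under Dex, normexp with the deposited local backgrounds called 2 and 6. The cause of the normexp change was not tested. The slide as a fixed block called 6 and 13 (6 and 14 without WT vehicle replicate 1). That array is alone on its slide, so a fixed slide block takes it up whole, and leaving it out is not a separate check there. The vehicle median moved from 0.40 to 0.36 with quantile normalization, 0.35 with normexp, 0.36 with normexp after local backgrounds were repaired and 0.43 with the slide as a fixed block. The Dex median moved from 0.45 to 0.40 with quantile normalization, 0.40 with repaired normexp, 0.41 with the mean over probes and 0.39 with the slide as a fixed block. Without WT vehicle replicate 1 the vehicle median was 0.33 with quantile normalization, and the Dex median 0.40 with quantile normalization, 0.40 with repaired normexp and 0.41 with the slide as a fixed block. Over all genes, quantile normalization moved the median genotype difference from 0.11 to 0.058 under vehicle and from 0.13 to 0.047 under Dex. With normexp as deposited it was 0.29 and -0.40, and 41.6% of the genes called under vehicle were higher against 58.9%.

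For Dex in WT the median was -0.23 with normexp, where the median over all genes was 0.55, and the 1 call without WT vehicle replicate 1 fell to 0 with the slide as a fixed or random block. For Dex in GR-C3 the count was 1 with the arrays of 1 genotype alone and the median -0.046 with normexp. The interaction median was 0.16 with normexp and 0.047 with the mean over probes. The replicate block changed no call count by over 1.5 times (22 genes called under vehicle and 28 under Dex, 26 and 33 without WT vehicle replicate 1). Single arrays left out gave 18 to 26 calls under vehicle (medians 0.34 to 0.43), 20 to 33 under Dex (0.38 to 0.46), 0 to 1 for Dex in WT (-0.035 to 0.042), 0 for Dex in GR-C3 and interaction medians of -0.040 to 0.046. With WT vehicle replicate 1 also out, the ranges were 13 to 31 (13 without WT vehicle replicate 2; 0.36 to 0.51), 27 to 34 (0.38 to 0.46), 0 to 6 (-0.057 to 0.061) and -0.055 to 0.083. The next counts cover the genes given by array under the rule above, and so leave out Cdk1, Nusap1 and Anln. Of 969 of their values, 821 kept direction and side of the threshold, 136 fell below it, 7 rose past it and 5 reversed. These were, with normexp, Cdc25c (-0.13) and Kif2c (-0.16) under Dex and Ube2c with Dex in WT (-0.24), Ube2c with Dex in WT without WT vehicle replicate 2 (-0.017), and Ect2 under vehicle as a mean over probes (-0.070). Without WT vehicle replicate 1, 638 of 704 kept both. Counting only the 250 bases before the start, 39.0% of the promoters held TTTGAA, against 16% of all. Low signals limit Ttk, Hmmr, Cdc25c and Kif11, the dimmest probes used.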

Other observations

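WT vehicle replicate 1 did not shift the 46 genes as a whole. It lay above both other WT vehicle arrays for 19 genes, below both for 20 and between them for 7, with a median difference from their mean of -0.018. The size of that difference had a median of 0.23, against 0.13 between replicates 2 and 3. The genes named next were picked after their values were seen. On this array Cdc20 (4.34), Ube2c (2.23), Kif22 (2.85) and Kif2c (-1.30) stood within or next to the range of the 6 GR-C3 arrays (4.27 to 4.46, 2.07 to 2.20, 2.79 to 3.02 and -1.41 to -1.16). On the same array Mad2l1 (-0.077), Ndc80 (-1.31) and Spc25 (1.39) were the lowest of all 12 arrays, and Cenpa (0.33) and Ect2 (0.79) were low among the WT arrays (0.30 to 0.70 and 0.79 to 1.19).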
